A study of Homo sapiens with 3 samples.

Results

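The antioxidant genes governed by the transcription factor NRF2 were followed through 3 RNA-seq libraries whose cells carry the label Hep3B, a line from a human liver carcinoma. The 9 members were chosen by name from 22827 genes in the table: NFE2L2, which encodes NRF2, its repressor KEAP1, and the antioxidant genes GCLC, GCLM, GSR, TXNRD1, SRXN1, NQO1 and HMOX1. All 9 were matched by symbol to an Ensembl identifier, and all 9 had at least 10 reads in 1 or more libraries, as did 12726 genes in all. One library came from USP39-KO cells, with a knockout of the spliceosome-associated protein USP39. One came from SIRT7-KO cells, with a knockout of the nuclear deacylase SIRT7. One came from control cells of the same line. The labels do not say how the knockouts were made, whether the cells were clones or pools, or what the control cells had received.

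NRF2 is a basic leucine zipper factor that pairs with small MAF proteins on antioxidant response elements. In unstressed cells KEAP1 holds NRF2 on a CUL3 ubiquitin ligase, which sends it to the proteasome, and electrophiles or oxidants that modify KEAP1 let NRF2 accumulate. Much of this control acts on the protein, so the transcript levels below do not measure NRF2 activity. In liver the pathway is known for glutathione synthesis and detoxification, and it is often active in liver cancer.

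Counts summed to 16630636 in USP39-KO, 16151522 in SIRT7-KO and 19427940 in control. Each targeted gene was lower in its own knockout library, but neither was lost: USP39 had 64.8 CPM (read counts scaled to the library's effective size) in USP39-KO and 94.1 CPM in control, a ratio of 0.688, and SIRT7 had 37.3 CPM in SIRT7-KO and 50.6 CPM in control, a ratio of 0.736. The labelled cell type had few of its markers: of 22 liver cell genes 14 had under 10 reads in every library, and 9 of those 14, albumin (ALB) and alpha-fetoprotein (AFP) among them, are listed at 0 in all 3. TKT, a metabolic gene of nearly all cells, is listed at 0 in all 3 libraries too, so a 0 in the table need not mean that a gene was silent. That remark does not cover markers that were counted but low, such as SERPINA1 with 0 reads in USP39-KO, 1 in SIRT7-KO and 2 in control. Whether the cells are the labelled line was not tested. The 22 liver cell genes summed to 4486 CPM in USP39-KO, 4086 CPM in SIRT7-KO and 4314 CPM in control, most of it from the urea cycle genes ASS1 and CPS1. Summed endothelial and leukocyte marker levels stayed between 3.28 and 7.90 CPM. Fibroblast markers summed to 139.6 CPM in USP39-KO, 115 CPM in SIRT7-KO and 118 CPM in control, and epithelial markers to 2171, 2351 and 2705 CPM in the same order. Of the liver factors, HNF4A had 29 reads in USP39-KO, 7 in SIRT7-KO and 113 in control. The part of these differences in the results below was not tested. In bulk RNA, fewer cells of a type and less RNA per cell cannot be told apart. Each group is a single library, so differences have no replicate check and carry no p-value. Intervals are exact 95% intervals of a pair of counts, for counting error alone, and bear on these libraries, not on the conditions.

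None of the 9 members was 2-fold higher or lower in either knockout library or between the knockout libraries. The size rules were a ratio of at least 2-fold, or of at least 1.5-fold, in either direction with an interval that leaves out equality. Of all 12726 genes 4.86% passed 2-fold in USP39-KO against control (1.49% higher, 3.37% lower), 7.06% in SIRT7-KO against control (3.02% higher, 4.05% lower) and 8.54% in USP39-KO against SIRT7-KO (3.51% higher, 5.03% lower). Past 1.5-fold in USP39-KO against control were 0 of the 9 members and 9.59% of all genes (3.19% higher, 6.4% lower). In SIRT7-KO against control they were 1 of the 9 and 15% of all genes (7.21% higher, 7.83% lower). In USP39-KO against SIRT7-KO they were 1 of the 9 and 18.2% of all genes (7.91% higher, 10.3% lower). The single member in SIRT7-KO against control was HMOX1, which was higher, and the single member between the knockouts was NFE2L2, which was higher in USP39-KO. The members' counts at both sizes are near what the shares of all genes give for 9 genes, so they set the members neither above nor below the rest.

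**Figure D1:**
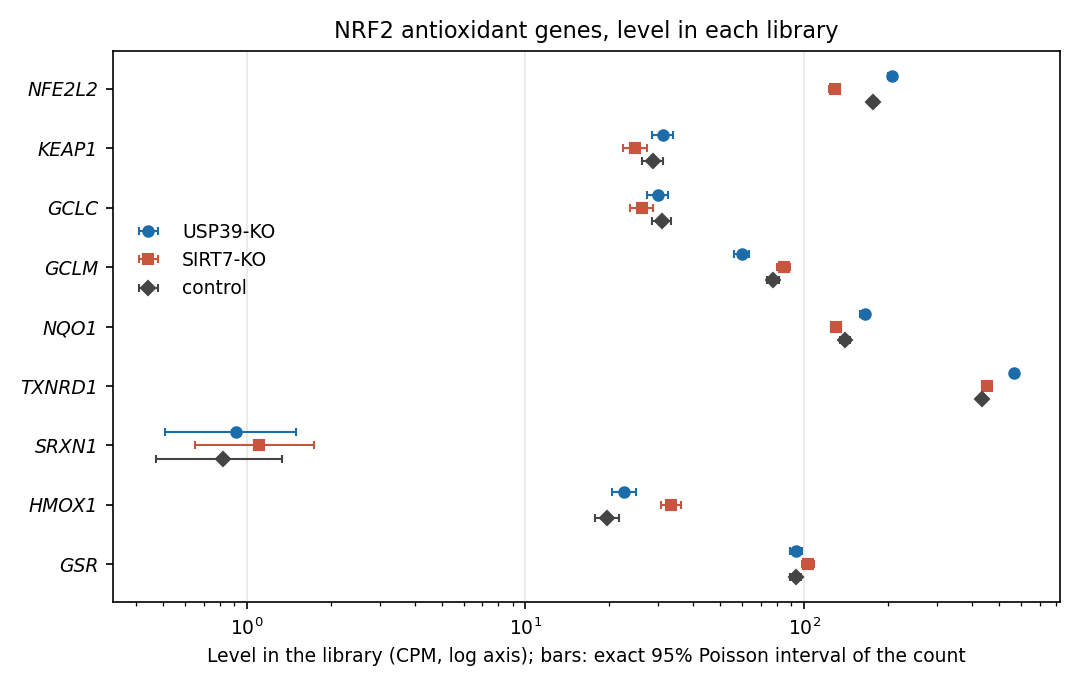
Level of each NRF2 antioxidant gene in the USP39-KO, SIRT7-KO and control libraries, 1 library each, in CPM on a log axis, with exact 95% Poisson intervals of the count as bars. The 3 libraries lie close together for most genes, NFE2L2 is lowest in SIRT7-KO (129 CPM), HMOX1 is highest in SIRT7-KO (33.3 CPM), and SRXN1 has wide bars because it had 15 to 18 reads.

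The members spanned a wide range of levels. Compared per length as the FPKM (reads scaled to the gene's length and the library's total) that the authors deposited, TXNRD1 was the most abundant member in each library, at 84.0 FPKM in USP39-KO, 68.5 FPKM in SIRT7-KO and 64.95 FPKM in control. NQO1 came next in each library, at 50.3, 40.5 and 43.1 FPKM in the same order. These levels placed TXNRD1 above 96.4% and NQO1 above 93.4% of the genes with reads in control. GCLC was the eighth of the 9 in each library, at 3.49 FPKM in USP39-KO, 3.12 FPKM in SIRT7-KO and 3.64 FPKM in control. SRXN1 was the lowest, at 0.334, 0.413 and 0.305 FPKM. The order of the 9 was the same in USP39-KO and control, whereas in SIRT7-KO GSR stood above NFE2L2. In control the neighbours NFE2L2 and GSR did not differ beyond counting error (per-length ratio 1.04, interval 0.977 to 1.10), nor did HMOX1 and KEAP1 (1.07, 0.938 to 1.22). HMOX1 and KEAP1 did not differ beyond it in USP39-KO either (1.14, 0.992 to 1.30), while in SIRT7-KO HMOX1 was 2.11 times KEAP1 (1.85 to 2.40).

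NFE2L2 (ENSG00000116044; chromosome 2, 177227595 to 177392697, minus strand in GENCODE 29, GRCh38) had 3410 reads in USP39-KO, 2098 in SIRT7-KO and 3426 in control. These were 207, 129 and 176 CPM, so that the SIRT7-KO library was the lowest and USP39-KO the highest. The log2 ratio was 0.23 in USP39-KO against control (0.16 to 0.30) and -0.46 in SIRT7-KO against control (-0.54 to -0.38). Between the knockouts NFE2L2 was 1.61-fold higher in USP39-KO (1.53 to 1.70). As a scale for these ratios, 13.7% of the genes with at least 200 reads in the pair of libraries were at least as far above control in USP39-KO, and 8.001% at least as far below control in SIRT7-KO. NFE2L2 overlaps AGPS on the opposite strand, which had 5102, 4352 and 5341 reads in the same order of libraries. No source used here says how strand was treated in counting; reads of a stretch shared by both genes could not be told apart without it.

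KEAP1 (ENSG00000079999; chromosome 19, 10486120 to 10503741, minus strand), the substrate adaptor that recruits NRF2 to the ligase, had 512 reads in USP39-KO, 403 in SIRT7-KO and 556 in control. The levels were 31.1, 24.7 and 28.6 CPM, in the same order of libraries as for NFE2L2 and closer together. Its log2 ratio was 0.12 in USP39-KO against control, with an interval across 0 (-0.06 to 0.30), and -0.21 in SIRT7-KO against control (-0.40 to -0.03). Factor and repressor can also be read against each other within a library, which needs no scaling between libraries. NFE2L2 was 4.24 times KEAP1 per length in USP39-KO, 3.31 times in SIRT7-KO and 3.92 times in control. That ratio was 0.845 times the control's in SIRT7-KO (0.733 to 0.974) and 1.08 times the control's in USP39-KO, an interval that includes 1 (0.948 to 1.23).

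GCLC and GCLM encode the catalytic and the modifier subunit of glutamate-cysteine ligase, the rate-limiting enzyme of glutathione synthesis. GCLC (ENSG00000001084; chromosome 6, 53497341 to 53616970, minus strand) had 491 reads in USP39-KO, 427 in SIRT7-KO and 598 in control, or 29.8, 26.2 and 30.8 CPM. GCLM (ENSG00000023909; chromosome 1, 93885205 to 93909456, minus strand) had 981 reads in USP39-KO, 1381 in SIRT7-KO and 1501 in control, or 59.6, 84.6 and 77.3 CPM. The subunits did not follow the same pattern: GCLM was lowest in USP39-KO, and GCLC was lowest in SIRT7-KO. For GCLC the log2 ratio was -0.05 in USP39-KO against control (-0.22 to 0.13) and -0.23 in SIRT7-KO against control (-0.42 to -0.05). For GCLM it was -0.37 in USP39-KO against control (-0.49 to -0.26) and 0.13 in SIRT7-KO against control (0.02 to 0.24). GCLM was the member farthest below control in USP39-KO, where 7.36% of genes with at least 200 reads were at least as far below. Per length, the modifier subunit was 3.15 times the catalytic one in USP39-KO (2.82 to 3.51), 5.09 times in SIRT7-KO (4.57 to 5.69) and 3.95 times in control (3.59 to 4.35). The 3 intervals did not overlap. The ratio in USP39-KO was 0.618 times the ratio in SIRT7-KO (0.528 to 0.722).

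GSR, glutathione reductase, returns oxidized glutathione to its reduced form with NADPH. GSR (ENSG00000104687; chromosome 8, 30678061 to 30727999, minus strand) had 1544 reads in USP39-KO, 1688 in SIRT7-KO and 1811 in control, or 93.8, 103 and 93.2 CPM. It was the member closest to control in USP39-KO, with a log2 ratio of 0.01 (-0.09 to 0.11). In SIRT7-KO against control the log2 ratio was 0.15 (0.05 to 0.25).

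TXNRD1 is the cytosolic selenoenzyme that reduces thioredoxin. TXNRD1 (ENSG00000198431; chromosome 12, 104215779 to 104350305, plus strand) had 9344 reads in USP39-KO, 7398 in SIRT7-KO and 8437 in control, or 568, 453 and 434 CPM. USP39-KO stood apart from the other libraries, which were close to each other. The log2 ratio was 0.39 in USP39-KO against control (0.34 to 0.43), the highest of the 9 members there, and 0.06 in SIRT7-KO against control (0.02 to 0.11). In USP39-KO, 4.95% of genes with at least 200 reads were at least as far above control. TXNRD1 was 2.93 times the other reductase, GSR, per length in USP39-KO, 2.12 times in SIRT7-KO and 2.25 times in control. That ratio was 1.30 times the control's in USP39-KO (1.21 to 1.40) and 0.941 times in SIRT7-KO (0.874 to 1.01). EID3, which overlaps TXNRD1 on the same strand, had 58, 33 and 66 reads in the same order of libraries.

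SRXN1, sulfiredoxin, repairs peroxiredoxins that have been overoxidized by peroxide. SRXN1 (ENSG00000271303; chromosome 20, 646615 to 653370, minus strand) had 15 reads in USP39-KO, 18 in SIRT7-KO and 16 in control, or 0.911, 1.10 and 0.824 CPM. These counts could not show a difference of ordinary size: the intervals of the log2 ratio ran from -0.97 to 1.26 in USP39-KO and from -0.63 to 1.49 in SIRT7-KO. A neighbouring gene annotated across the same stretch of the same strand had 2, 4 and 3 reads, so reads could also have been split between them.

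NQO1 is the quinone reductase that is widely used as a readout of NRF2. NQO1 (ENSG00000181019; chromosome 16, 69706996 to 69726951, minus strand) had 2720 reads in USP39-KO, 2127 in SIRT7-KO and 2725 in control, or 165, 130 and 140 CPM. USP39-KO was the highest library and SIRT7-KO the lowest. The log2 ratio was 0.24 in USP39-KO against control (0.16 to 0.31) and -0.11 in SIRT7-KO against control (-0.19 to -0.02).

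HMOX1, haem oxygenase, opens haem to biliverdin, carbon monoxide and iron, and it is induced by haem and by several stresses besides NRF2. HMOX1 (ENSG00000100292; chromosome 22, 35380361 to 35394214, plus strand) had 372 reads in USP39-KO, 543 in SIRT7-KO and 381 in control, or 22.6, 33.3 and 19.6 CPM. SIRT7-KO stood above the other libraries. HMOX1 was 1.70-fold higher in SIRT7-KO than in control (1.49 to 1.94), where 2.51% of genes with at least 200 reads were at least as far above. In USP39-KO against control the log2 ratio was 0.20 and its interval reached just below 0 (-0.01 to 0.41). HMOX1 stood to NQO1 at a per-length ratio of 0.185 in USP39-KO, 0.345 in SIRT7-KO and 0.189 in control. In SIRT7-KO that ratio was 1.83 times the control's (1.58 to 2.11).

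**Figure D2:**
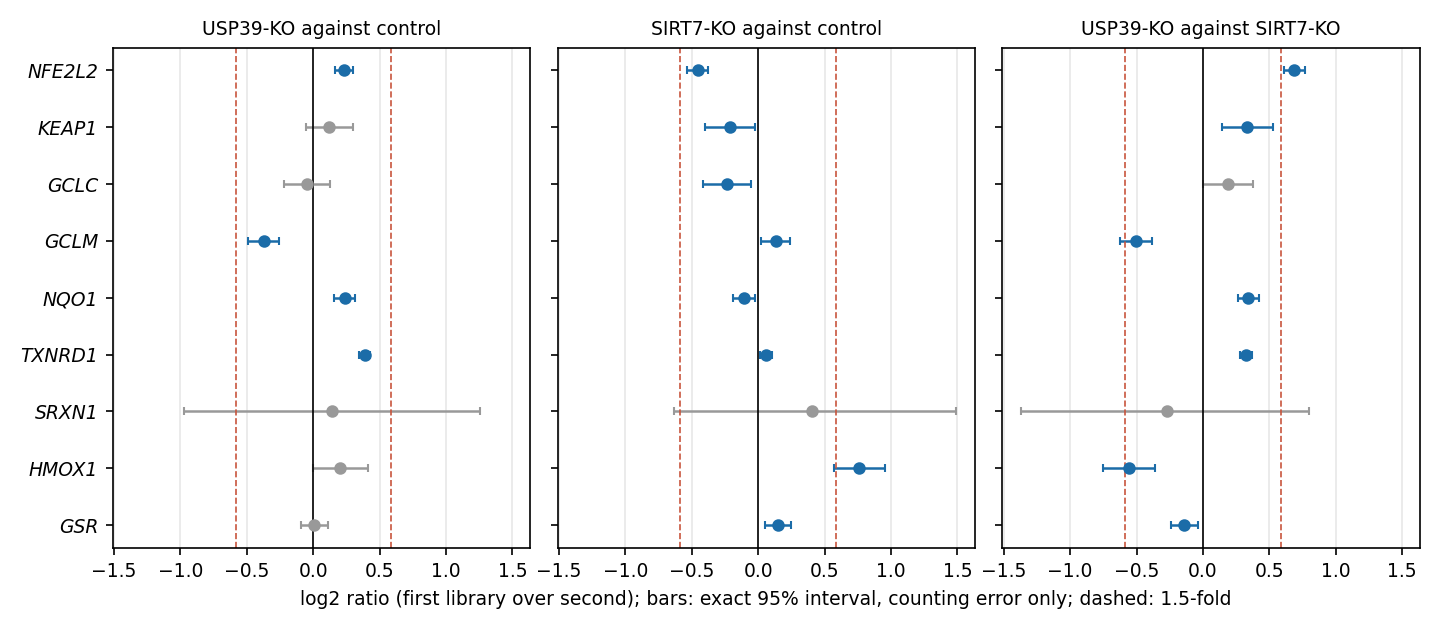
log2 ratio of each NRF2 antioxidant gene in USP39-KO against control, SIRT7-KO against control and USP39-KO against SIRT7-KO, first library over second, with exact 95% intervals for counting error. Blue points have an interval that leaves out 0, grey points do not, and dashed lines mark 1.5-fold; HMOX1 in SIRT7-KO against control (0.76) and NFE2L2 in USP39-KO against SIRT7-KO (0.69) lie beyond a dashed line with such an interval.

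As a group the members had a median log2 ratio of 0.14 in USP39-KO against control, with 7 of 9 above 0. That median is the value of SRXN1, which rests on 15 reads against 16 (-0.97 to 1.26). The median over all 12726 genes was -0.00, with 49.6% above 0. At any size, the interval left out equality for 3 members above control (TXNRD1, NQO1 and NFE2L2) and 1 below it (GCLM), beside 22% of all genes above and 22.5% below (44.4% together). With DESeq2 size factors HMOX1 joined those above (0.21, 0.00 to 0.42). In SIRT7-KO against control the members' median was 0.06 and that of all genes -0.01, with 5 of 9 members above 0. The interval left out equality for 4 members above control (HMOX1, GSR, GCLM and TXNRD1) and 4 below it (NFE2L2, GCLC, KEAP1 and NQO1), beside 27.3% of all genes above and 28.8% below (56.1% together). Without SRXN1, which a filter of at least 100 reads removes, the SIRT7-KO median was -0.016. Both comparisons use the same control library, so their ratios share its counting error. Between the knockouts, which leaves the control out, the members ran from -0.56 for HMOX1 to 0.69 for NFE2L2, with a median of 0.19 against 0.00 over all genes. The interval left out equality for 4 members higher in USP39-KO (NFE2L2, NQO1, KEAP1 and TXNRD1) and 3 lower (HMOX1, GCLM and GSR), beside 29.8% of all genes higher and 29.2% lower (59.1% together).

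**Figure D3:**
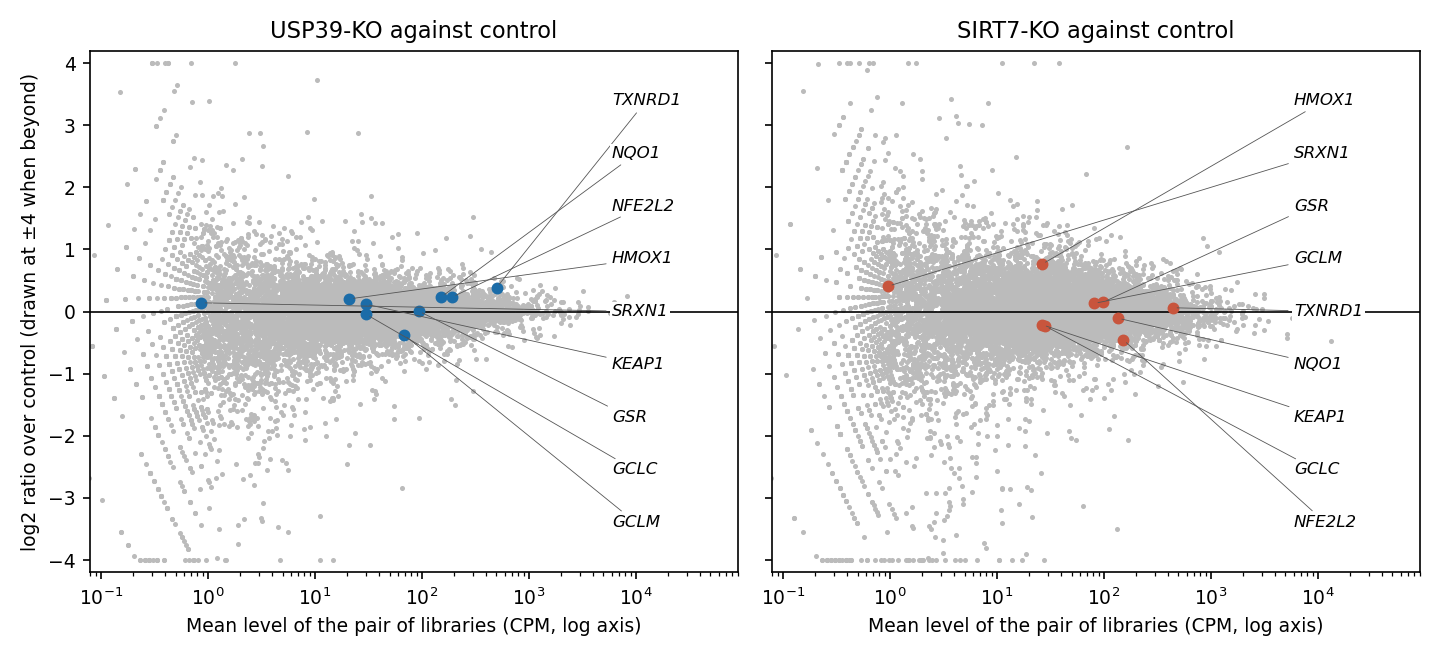
log2 ratio over control against mean level (CPM, log axis) for all 12726 genes kept (grey) and the 9 NRF2 antioxidant genes (coloured, named), in USP39-KO and in SIRT7-KO. The members sit inside the grey cloud in both panels, from -0.37 to 0.39 in USP39-KO and from -0.46 to 0.76 in SIRT7-KO.

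The antioxidant response element is the DNA site read by NRF2 and its partners, and its core was searched as TGACNNNGC on both strands of the RefSeq promoters (GRCh38.p14), each 250 bases before to 50 bases after a start. Of all 35116 promoters 13.3% held it. Of the members 7 had a promoter there, 10 windows in all, and 4 windows of 3 members held it: GCLM, TXNRD1 at both of its starts, and KEAP1 at 1 of its 2 starts. HMOX1 and GSR were not matched to a window. Sequence farther from the starts was not searched. A window without a match, as for NFE2L2, GCLC, NQO1 and SRXN1, therefore does not show that the gene lacks an element. The matches of all 3 members are shown. GCLM and TXNRD1 share the pattern only, as the bases left free in the search differ between their cores. The GCLM core and the KEAP1 core nearer to its start are the same in every base. Each line gives 29 bases of the gene's own strand, 5′ to 3′, with the core in capitals.
GCLM, chr1:93909446-93909474, minus strand: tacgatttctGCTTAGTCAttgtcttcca
TXNRD1, first start, chr12:104215670-104215698, plus strand: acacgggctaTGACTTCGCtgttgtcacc
TXNRD1, first start, chr12:104215761-104215789, plus strand: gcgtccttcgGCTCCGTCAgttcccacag
TXNRD1, second start, chr12:104286920-104286948, plus strand: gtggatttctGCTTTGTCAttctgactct
KEAP1, second start, chr19:10502807-10502835, minus strand: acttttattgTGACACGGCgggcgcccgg
KEAP1, second start, chr19:10502784-10502812, minus strand: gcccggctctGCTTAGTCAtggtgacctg
Capitals that begin with GC are the core read on the opposite strand. The GCLM core began 34 bases before the start, the cores of TXNRD1 99, 8 and 102 bases before, and those of KEAP1 54 and 31 bases before. A match of these letters is a description of the sequence, and the data hold no measure of binding.

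**Figure D4:**
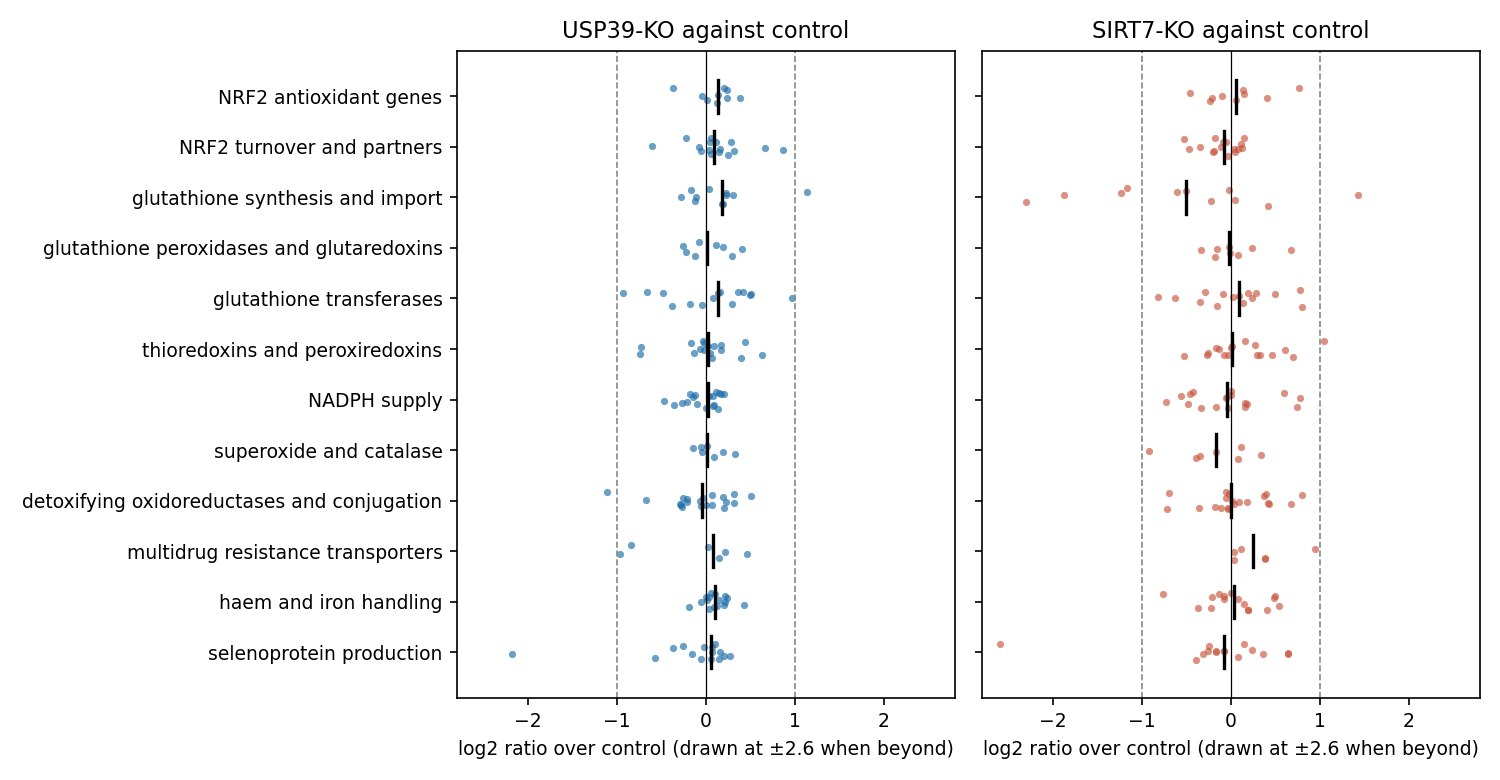
log2 ratio over control of the NRF2 antioxidant genes and of 11 wider lists of the pathway, in USP39-KO and in SIRT7-KO; each point is a gene, the black bar is the list's median and dashed lines mark 2-fold. Most genes lie within 2-fold in both panels. The glutathione synthesis and import list, which also holds genes that cleave glutathione, has the lowest median in SIRT7-KO (-0.51). SELENOP, with 0 reads in SIRT7-KO, is drawn at the left edge.

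The members were then set among the other genes of the pathway, in 11 wider lists. Of 169 listed genes 168 were found and 149 had at least 10 reads in a library. Past 2-fold in USP39-KO were 1 gene higher and 2 lower, and in SIRT7-KO 2 higher and 4 lower. That is 2.01% and 4.03% of the 149, beside 4.86% and 7.06% of all genes. Past 1.5-fold were 8.05% in USP39-KO and 16.1% in SIRT7-KO, beside 9.59% and 15%. In USP39-KO against SIRT7-KO, 8 genes were higher and 10 lower past 2-fold (12.1% of the 149, beside 8.54% of all genes). The genes named below from these lists passed 1 of the size rules or were the most abundant of their list, and those past only 1.5-fold or with under 100 reads were chosen after their values were seen, as were those given for their likeness in role to a member.

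Genes that hold, degrade or partner NRF2 held no gene past 2-fold in either knockout library against control (16 genes; median 0.09 in USP39-KO and -0.07 in SIRT7-KO). CUL3, the scaffold of the ligase, had 83.0 CPM in USP39-KO, 82.8 CPM in SIRT7-KO and 80.1 CPM in control. SQSTM1, the autophagy receptor that competes for KEAP1, had 278, 229 and 249 CPM in the same order. The small MAF partners MAFG and MAFK had log2 ratios between -0.19 and -0.05 in the knockout libraries, and the third, MAFF, had 0.28 in USP39-KO (0.05 to 0.52) and 0.15 in SIRT7-KO (-0.09 to 0.39). BACH1, which represses HMOX1 by occupying the same elements, had 0.06 in USP39-KO and 0.08 in SIRT7-KO, with intervals across 0 (-0.05 to 0.17 and -0.04 to 0.19). The related repressor BACH2 was higher past 1.5-fold in USP39-KO (209 reads, against 155 in control; log2 ratio 0.67), as was RBX1, the RING subunit of the ligase, on 36 reads against 23. NFE2L3, a relative of NRF2, was lower past 1.5-fold there (143 reads, against 258; -0.61). Between the knockouts BACH2 was the 1 gene of this list past 2-fold, 2.20-fold higher in USP39-KO (209 reads, against 94 in SIRT7-KO). NFE2L1 was the most abundant of the list, at 41.7 FPKM in USP39-KO, 39.8 FPKM in SIRT7-KO and 41.0 FPKM in control. The coactivator CREBBP had 276 CPM in USP39-KO, 161 CPM in SIRT7-KO and 233 CPM in control, the same order of libraries as NFE2L2.

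The list of glutathione synthesis and import, which also holds genes that cleave glutathione or trim its products, had the lowest list median in SIRT7-KO. That median is the value of CHAC2, which cleaves glutathione as CHAC1 does (215 reads in SIRT7-KO, 364 in control). In SIRT7-KO 3 of 11 genes were lower past 2-fold and 1 was higher, with a median of -0.51, while in USP39-KO 1 was higher and the median was 0.18. Of all genes 4.05% were lower and 3.02% higher past 2-fold in SIRT7-KO, and 1.49% were higher in USP39-KO. The list was chosen with earlier results of these data known. SLC7A11, the cystine importer, had 3321 reads in USP39-KO, 788 in SIRT7-KO and 3461 in control, and was 3.69-fold lower in SIRT7-KO than in control. CTH, which releases cysteine from cystathionine, had 2847, 1098 and 2943 reads and was 2.25-fold lower. CHAC1, which cleaves glutathione, had 633, 124 and 730 reads and was 4.93-fold lower. These 3 genes are known targets of ATF4, a factor of the amino acid response. So is SLC3A2, which was near control in SIRT7-KO (log2 ratio 0.04). SLC7A11 is also one of the genes of the NRF2 pathway set here beside the members. A part of ATF4 or of NRF2 in these values was not tested. In USP39-KO SLC7A11, CTH and CHAC1 lay within 1.5-fold of control, and they were past 2-fold higher there than in SIRT7-KO. CBS, the enzyme before CTH, was lower past 1.5-fold in SIRT7-KO (979 reads, against 1780 in control; log2 ratio -0.61). ANPEP, an aminopeptidase that trims extracellular glutathione products, was higher in both knockout libraries: 576 reads in USP39-KO (2.20-fold), 700 in SIRT7-KO (2.69-fold) and 309 in control. GSS, which completes glutathione, had log2 ratios of -0.13 in USP39-KO and -0.23 in SIRT7-KO, and SLC3A2, the heavy chain of the importer and the most abundant of the list, had 0.23 and 0.04.

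The next lists hold the genes that use glutathione. Among peroxidases and glutaredoxins no gene of 8 passed 2-fold against control, and GPX1, the cytosolic glutathione peroxidase, was the single gene past 1.5-fold against control, with 843 reads in USP39-KO, 1558 in SIRT7-KO and 1160 in control (log2 ratio 0.68 in SIRT7-KO against control). GPX4, which reduces lipid peroxides, was the most abundant of the list on average over the libraries, at 51.7 FPKM in USP39-KO, 67.3 FPKM in SIRT7-KO and 56.7 FPKM in control. Of 15 glutathione transferases none passed 2-fold against control, while between the knockouts GSTO2 and GSTA4 were higher and GSTM2 lower past 2-fold in USP39-KO. MGST3 had 54.4 CPM in USP39-KO, 85.0 CPM in SIRT7-KO and 49.5 CPM in control, and it and GSTM2 (25, 69 and 47 reads) were higher past 1.5-fold in SIRT7-KO. GSTA4 was lower past 1.5-fold there (54 reads, against 100 in control). GSTO2 was higher past 1.5-fold in USP39-KO and lower in SIRT7-KO, on 82, 23 and 49 reads, and GSTT2B was lower in USP39-KO on 14 reads, against 32 in control. GSTP1 was the most abundant, at 289 FPKM in USP39-KO, 228 FPKM in SIRT7-KO and 277 FPKM in control. GSTM genes are close copies of each other, so their reads may have been divided unevenly.

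In the thioredoxin and peroxiredoxin list TXNIP, the inhibitor of thioredoxin, was the single gene of 17 past 2-fold against control. It had 141 reads in USP39-KO, 219 in SIRT7-KO and 126 in control, and was 2.06-fold higher in SIRT7-KO than in control. TXNRD2, the mitochondrial counterpart of TXNRD1, was also highest in USP39-KO, with 115 CPM there, 71.0 CPM in SIRT7-KO and 85.2 CPM in control. TXN, the substrate of TXNRD1, had log2 ratios of -0.13 in USP39-KO and -0.14 in SIRT7-KO. PRDX1, the main cytosolic peroxiredoxin and a substrate of sulfiredoxin, was the most abundant gene of its list at 681 FPKM in USP39-KO, 586 FPKM in SIRT7-KO and 654 FPKM in control. The methionine sulfoxide reductase MSRB1, a selenoprotein, was lower past 1.5-fold in USP39-KO and higher in SIRT7-KO (346, 867 and 679 reads), and it was 2.52-fold lower in USP39-KO than in SIRT7-KO, where MSRB2 was lower past 2-fold too (17 and 36 reads). MSRB3 was higher past 1.5-fold in both (432, 448 and 328 reads).

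The NADPH supply list and the superoxide and catalase list were read next. The superoxide list also holds NOX1, CYBA and CYBB, parts of oxidases that make superoxide. None of 18 NADPH genes and none of 7 superoxide and catalase genes passed 2-fold in either knockout library against control. Of all genes 4.86% passed it in USP39-KO and 7.06% in SIRT7-KO, which gives few in lists this short. PGD, an NADPH-forming enzyme and known NRF2 target, had a log2 ratio of 0.01 in USP39-KO and -0.06 in SIRT7-KO. It was the most abundant of its list, at 58.5 FPKM in USP39-KO, 57.0 FPKM in SIRT7-KO and 58.9 FPKM in control. In SIRT7-KO the hexokinase HK2 (0.74), the mitochondrial isocitrate dehydrogenase IDH2 (0.78) and the malic enzyme ME2 (0.60) were higher past 1.5-fold, and ALDH1L2 was lower (-0.73). That is 3 higher and 1 lower of the 18 NADPH genes, beside 7.21% and 7.83% of all genes. Between the knockouts HK2 (2.02-fold) and IDH2 (2.39-fold) were lower past 2-fold in USP39-KO. SOD1 was the most abundant of the superoxide list, at 80.8 FPKM in USP39-KO, 76.0 FPKM in SIRT7-KO and 71.4 FPKM in control.

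Detoxifying enzymes gave 1 gene of 20 past 2-fold against control. ALDH2, the mitochondrial aldehyde dehydrogenase, had 148 reads in USP39-KO, 311 in SIRT7-KO and 378 in control, and was 2.16-fold lower in USP39-KO than in control. Between the knockouts ALDH2 and ALDH3A1 (11 reads in USP39-KO and 31 in SIRT7-KO) were lower past 2-fold in USP39-KO. In SIRT7-KO UGDH, which makes UDP-glucuronate and was the most abundant of the list on average, was lower past 1.5-fold (1646 reads, against 3228 in control; log2 ratio -0.72), and OSGIN1 was higher (161 reads, against 120; 0.67). AKR1B10, AKR1C1, AKR1C2 and AKR1C3, aldo-keto reductases often used to read NRF2 activity in human cells, had at most 8 reads in any library. The AKR1C genes are close copies of each other, so their reads may have been lost or divided unevenly. Their counts are no measure of NRF2 activity here. Of 6 conjugate exporters none passed 2-fold against control, and ABCC2 and ABCC3 were lower past 1.5-fold in USP39-KO. ABCC2, the most abundant of the exporters on average, had 153 CPM in USP39-KO, 357 CPM in SIRT7-KO and 274 CPM in control, and ABCC3 25.6, 65.3 and 49.9 CPM. Both were past 2-fold lower in USP39-KO than in SIRT7-KO (2.34-fold and 2.55-fold). In SIRT7-KO the porphyrin transporter ABCB6 was the single exporter past 1.5-fold, on 28 reads against 17 in control.

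The haem and iron list holds the genes around HMOX1. Its median was 0.10 in USP39-KO, with 14 of 16 above 0, beside 49.6% of all genes. In SIRT7-KO the median was 0.04, with 8 of 16 above 0, beside 48.7% of all genes. Several of the 14 were close to 0, such as SLC11A2 (0.00, -0.09 to 0.09) and ACO1 (0.01, -0.11 to 0.14). None of the 16 passed 2-fold against control, and TFRC, the transferrin receptor, was the single gene past 1.5-fold against control, with 1455 CPM in USP39-KO, 638 CPM in SIRT7-KO and 1082 CPM in control. Between the knockouts TFRC was 2.28-fold higher in USP39-KO, and SLC48A1 was lower past 1.5-fold. The biliverdin reductases had log2 ratios in SIRT7-KO of 0.41 for BLVRA (0.21 to 0.61) and 0.49 for BLVRB (0.36 to 0.61). ALAS1, the first enzyme of haem synthesis, had 0.50 there (0.40 to 0.60), and the haem transporter SLC48A1 0.55 (0.37 to 0.72). HMOX2, the constitutive haem oxygenase, had 0.19 (0.06 to 0.33). On the other side of control there were PGRMC1, a haem-binding protein, at -0.37 (-0.45 to -0.29), and FECH, the last enzyme of haem synthesis, at -0.08 (-0.28 to 0.12). The ferritin chains split in SIRT7-KO, with FTL at 0.08 and FTH1 at -0.21, and lay together in USP39-KO at 0.20 and 0.22. FTL was the most abundant of the list, at 763 FPKM in USP39-KO, 719 FPKM in SIRT7-KO and 672 FPKM in control.

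TXNRD1 is a selenoprotein, so the machinery and other selenoproteins were read beside it. Of 15 genes 1 passed 2-fold against control: SELENOP, the plasma selenium carrier, had 6 reads in USP39-KO, 0 in SIRT7-KO and 34 in control. It was at least 9.52-fold lower in SIRT7-KO than in control, counting 0 reads as up to 3, and 4.52-fold lower in USP39-KO (log2 ratio -2.18, -3.81 to -0.99). SELENOW and SELENOH were higher past 1.5-fold in SIRT7-KO (0.65 each), and SELENOH was 2.34-fold lower in USP39-KO than in SIRT7-KO. SELENOP was higher past 2-fold in USP39-KO than in SIRT7-KO, on 6 reads against 0. SELENOF was the most abundant, at 81.7 FPKM in USP39-KO, 93.4 FPKM in SIRT7-KO and 71.9 FPKM in control.

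HMOX1 had the largest ratio of any member over control. The 3 genes closest to it in the pair of log2 ratios over control, among 9050 others with at least 500 reads over the 3 libraries, were TARS3, DNAJB1 and BAG3. TARS3, a threonyl-tRNA synthetase, had 554 reads in USP39-KO, 801 in SIRT7-KO and 563 in control. DNAJB1, a heat shock cochaperone, had 2275, 3358 and 2327 reads, and BAG3, another cochaperone, had 881, 1268 and 890 reads, in the same order of libraries. Their distances from HMOX1 were 0.01, 0.02 and 0.02 in log2 units. Likeness over 3 libraries describes these values only.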

How the data were processed

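Total RNA was extracted with Trizol and made into TruSeq libraries, per the labels' protocols. The aligner, counter, genome build, annotation and strand setting remain unknown (not given in the sources used here). Per the file headers, the authors deposited whole read counts and FPKM per gene. Deposited FPKM equalled count over listed length and library total for every gene with reads (relative tolerance 1e-06), and were used for levels between genes. Symbols came from a table of gene names and GENCODE 29 (19649 of 22827 identifiers). Members' coordinates are those of GENCODE 29. Counts were scaled with TMM factors (edgeR 4.0.16): 0.9896 in USP39-KO, 1.0104 in SIRT7-KO and 1.0000 in control. Ratios used a prior of 0.5 counts; intervals were Clopper-Pearson (SciPy 1.17.1), and ratios of ratios conditional odds ratios. Intervals and the 3-count floor take each read as an independent molecule, which PCR copies are not, and so cover counting error alone. Genes with at least 10 counts in a library were kept. The steps were tested on simulated counts. The members, lists and naming rules were chosen with earlier results of these data known. All 9 members are named; of each wider list, genes past 2-fold with at least 100 counts and the most abundant per length; and the 3 genes nearest the member with the largest ratio. Spread between replicates could not be estimated. Alternatives were DESeq2 1.42.0 size factors, library totals, TMM without mitochondrial-genome genes, no filter, a filter of 100 counts and a prior of 2.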

Additional observations from a re-analysis of the deposited data

How the results depend on the processing

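Each of 36 values on the members was recomputed under 6 alternatives (213 values, since SRXN1 drops out under the filter of 100 counts), and 211 stayed within the interval of the value reported or at the same count. A median was judged by the interval of the member nearest to it. For USP39-KO against control that was the wide interval of SRXN1, so this check could hardly fail there. With the filter of 100 counts the members' median in SIRT7-KO against control was -0.016 in place of 0.06, because SRXN1 leaves the list. With library totals in place of TMM, 2 members rather than 1 passed 1.5-fold in USP39-KO against SIRT7-KO, as HMOX1 came to a log2 ratio of -0.59. GSR in USP39-KO, at 0.01, turned to -0.01 with library totals. No alternative brought a member past 2-fold or moved the median of all genes by over 0.03. For the named genes of the wider lists, in alternatives chosen after seeing the data, all 466 values stayed within their intervals, though with DESeq2 size factors the interval of GSTT2B in USP39-KO against control reached 0 (-0.92, -1.97 to 0.00), which ends its call past 1.5-fold. No paired analysis was possible because each group has 1 library. The depth limits SRXN1 most, at 15 to 18 reads.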
